A study of Mus musculus with 8 samples.

Results

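The genes described here carry zinc, iron, manganese and magnesium across membranes or hold iron in the cell. They were chosen by symbol alone: every member of the solute carrier families SLC11, SLC30, SLC39, SLC40 and SLC41, both transferrin receptors, the ferritin heavy and light chains, the ferric reductase Cybrd1 and the ferroxidase Heph. The rule found 36 of the 21757 genes in the mouse genotype table and 36 protein-coding genes among the 60237 gene identifiers of the knockdown tables. The data are 8 libraries of polyadenylated RNA from 2 experiments, each with 2 groups of 2, all made with a custom form of Smart-seq2. The genotype experiment compared WT with Ctnnb1-ex3 organoids, which are epithelial cultures from mouse small intestine. WT organoids were grown with Wnt3a, R-spondin1, Noggin and EGF, and Ctnnb1-ex3 organoids, named for an allele of the beta-catenin gene, with Noggin and EGF alone. Genotype and medium therefore cannot be told apart. The knockdown experiment compared libraries labelled sh-scramble, which carry a control short hairpin RNA, with libraries carrying a hairpin against the arginine methyltransferase Prmt1 (sh-Prmt1). All 60237 identifiers of the knockdown tables are human although the labels name mouse, so the tissue and culture behind them are not established here. The labels do not give the age of the mice, the driver of the Ctnnb1 allele, or whether the replicates of a group came from different cultures or mice. A p-value below therefore measures how far replicate libraries spread, and that spread may be technical only.

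Dietary iron enters the absorptive cell in its ferrous form. Cybrd1 reduces ferric iron at the brush border, Slc11a2 imports it with protons, ferritin stores it, and Slc40a1 (ferroportin) exports it at the opposite side, where Heph oxidises it for loading onto transferrin. Tfrc brings transferrin-bound iron into dividing cells from the blood side. In zinc transport the SLC30 proteins move the metal out of the cytosol, to the outside or into vesicles, and the SLC39 proteins move it into the cytosol. Slc30a10 is known as a manganese exporter, and Slc39a8 and Slc39a14 carry manganese and iron as well as zinc.

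Several iron genes are set after transcription by iron-responsive elements, short hairpins in the mRNA that bind the iron regulatory proteins when iron is scarce. A hairpin before the coding region blocks translation, and hairpins after it protect the mRNA from decay. A search of the GENCODE M21 transcripts for a C, 5 bases, the loop CAGTGN and 5 further bases that pair with the first found such sites in 4 of the 36 mouse genes. In all genes, 31 of 20899 with a 5′ UTR held a site there (0.148%), and 129 of 21022 with a 3′ UTR held one there (0.614%). The pattern asks for 5 unbroken pairs, so hairpins of another form are missed. A gene without a match, such as Slc11a2, may still carry an element. The sites are shown because the genes that carry them include Slc40a1, Fth1 and Tfrc, whose levels are given below. Capitals mark the loop, and positions are on mm10.
Fth1 5′ UTR, chr19:9982732-9982760, plus strand: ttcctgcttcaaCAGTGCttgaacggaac
Ftl1 5′ UTR, chr7:45459779-45459807, minus strand: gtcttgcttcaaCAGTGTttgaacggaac
Slc40a1 5′ UTR, chr1:45925465-45925493, minus strand: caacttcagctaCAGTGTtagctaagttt
Tfrc 3′ UTR, chr16:32631219-32631247, plus strand: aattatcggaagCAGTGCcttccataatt
Tfrc 3′ UTR, chr16:32631598-32631626, plus strand: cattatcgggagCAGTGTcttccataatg
Tfrc 3′ UTR, chr16:32631663-32631691, plus strand: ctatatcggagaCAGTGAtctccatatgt
Tfrc 3′ UTR, chr16:32631710-32631738, plus strand: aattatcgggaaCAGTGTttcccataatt
The 3 genes with a match before the coding region make the proteins that store or export iron. Tfrc, with 4 matches behind the coding region, imports it. RNA levels do not show the translational arm of this control.

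Zinc transporters can also be set at transcription by the metal-responsive factor MTF1, which binds short metal response elements. The letters TGCACNC or TGCGCNC, searched on both strands of the 250 bases before each RefSeq start (GRCm38.p6), occurred in 15 of the 38 windows of the 29 members that matched the RefSeq table. They occurred in 21.4% of all 32851 windows of that length. The stretches from 140 to 21 bases before the start are shown for the exporter genes Slc30a1 and Slc30a10, both of which hold a match and were lower in Ctnnb1-ex3 organoids. Capitals mark the match, which lies on the minus strand in Slc30a1. The window of Slc30a10 holds 3 matches, of which 1 lies in the stretch shown.
Slc30a1, chr1:191906641-191906760, plus strand: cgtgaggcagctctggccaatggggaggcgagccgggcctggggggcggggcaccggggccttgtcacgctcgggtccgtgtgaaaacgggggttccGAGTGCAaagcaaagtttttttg
Slc30a10, chr1:185454708-185454827, plus strand: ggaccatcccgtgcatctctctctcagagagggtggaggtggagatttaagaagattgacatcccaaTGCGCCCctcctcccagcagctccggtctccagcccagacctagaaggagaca
The first base of the match shown lay 43 bases before the start in Slc30a1 and 73 bases before it in Slc30a10. A match is a run of letters and not a measured binding site.

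The genotype libraries held between 2951887 and 6015933 counts and the knockdown libraries between 39608106 and 53193238 estimated counts. Levels are CPM, counts relative to the TMM-scaled library size. Prmt1 had 44 and 30 counts in the WT libraries against 341 and 126 in Ctnnb1-ex3, and PRMT1 stood at 37.0 and 34.2 CPM in sh-scramble and at 2.99 and 3.35 in sh-Prmt1. In the genotype table the ratio of the WT replicates fell from a median of 1.76 for genes under 50 counts per kb of exon to 1.21 above 800, and no gene passed 1992 counts per kb. The densest genes thus differed between these replicates by less than the library totals did (1.57). Of the 9 enterocyte markers, 8 fell in Ctnnb1-ex3 (20.5% of all genes). The summed level of the 9 was 4243 and 5202 CPM in WT against 1355 and 1123. All 5 crypt base stem cell markers rose (20.3% of all genes), from a sum of 308.5 and 331.7 CPM to 987.4 and 1159. So did all 3 enteroendocrine markers, from a sum of 249.8 and 123.6 CPM to 400.5 and 474.5, and 2 of 3 Paneth markers. Of the 9 general epithelial markers, 4 fell (20.5% of all genes) and 0 rose. Of 3 goblet markers, 1 rose and 1 fell. WT replicate 1 stood apart with 102.7 CPM of 6 macrophage markers (9.13 to 25.4 in the other libraries), and Ctnnb1-ex3 replicate 2 with 42.6 CPM of 5 lymphocyte markers (at most 2.66 in the others). In the knockdown libraries all 9 epithelial markers were detected and 4 of them were higher with sh-Prmt1 (20.6% of all genes).

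Transport genes for these metals were mostly lower in Ctnnb1-ex3 organoids than in WT. The largest falls were in the magnesium transporter Slc41a2, the manganese exporter Slc30a10 and the iron exporter Slc40a1, with fitted folds of 10.9, 9.17 and 8.39. Both brush border iron genes, Cybrd1 and Slc11a2, fell 4.13-fold and 4.05-fold. The zinc importers Slc39a6 and Slc39a10 and the magnesium transporter Slc41a1 rose. Of the 36 genes, 31 passed the filter on low counts and 23 were called at an edgeR adjusted p under 0.05, where 40.8% of all 12976 genes tested were called. Among the 31, 20 were lower (20.5% of all genes) and 3 higher (20.3% of all genes). Past an absolute log2 fold change of 1 there were 14 calls (22.0% of all genes), 11 lower (8.99% of all genes) and 3 higher (13.0% of all genes). The median log2 fold change was -0.66 over the 31 genes and 0.02 over all genes tested. With upper-quartile factors the median of all genes moved to 0.26 and 68% of all calls were rises, against 49.8% in the main fit. Then 14 of the transport genes were lower and 4 higher, against 1752 lower and 3725 higher among all 12976 genes tested. Of the 23 calls, 16 held under all 12 alternatives. Without WT replicate 2, 13 genes were lower, and without Ctnnb1-ex3 replicate 1, 5 were higher. The enterocyte markers moved with these falls, and the part of any cell type in them was not tested. In bulk RNA, fewer cells of a type and less RNA per cell cannot be told apart.

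**Figure D1:**
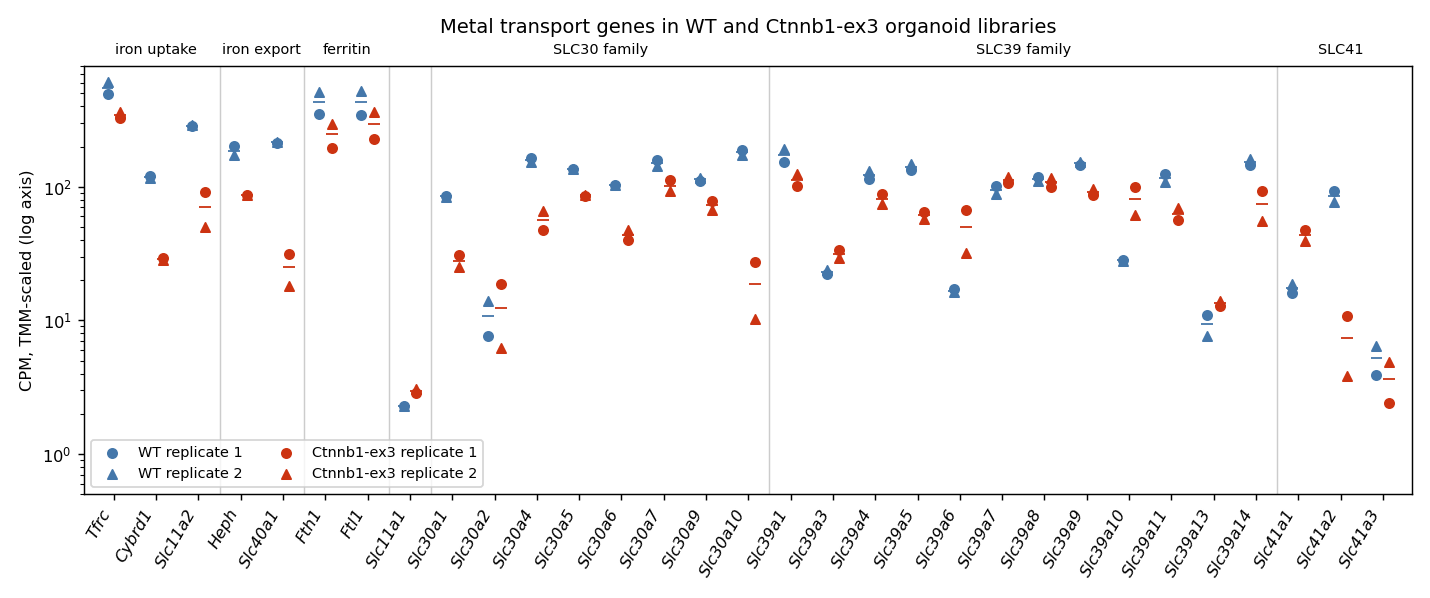
Level of each transport gene that passed the filter in the genotype experiment, as TMM-scaled CPM on a log axis, with circles for replicate 1, triangles for replicate 2 and a line at each group mean. Slc40a1, Slc30a10 and Slc41a2 show the widest gaps between WT (blue) and Ctnnb1-ex3 (red), and Slc39a6, Slc39a10 and Slc41a1 lie higher in Ctnnb1-ex3.

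Iron uptake genes were lower in both Ctnnb1-ex3 libraries. Cybrd1, the brush border ferric reductase (chromosome 2, 71117923 to 71142926, plus strand), stood at 121 and 117 CPM in WT and at 29.2 and 28.5 in Ctnnb1-ex3. Its replicates lay close together in both groups, and it fell 4.13-fold (log2 fold change -2.05 ± 0.14, SE; edgeR adjusted p = 0.000105). Slc11a2, the proton-coupled importer of ferrous iron (chromosome 15, 100387898 to 100425072, minus strand), stood at 286 and 289 CPM in WT and at 90.8 and 49.6 in Ctnnb1-ex3. The WT replicates were nearly equal and the Ctnnb1-ex3 replicates were not, yet the groups lay far apart. The fall was 4.05-fold (log2 fold change -2.02 ± 0.26, SE; edgeR adjusted p = 0.00097). Tfrc, the transferrin receptor (chromosome 16, 32608920 to 32632794, plus strand), stood at 496 and 610 CPM in WT and at 329 and 365 in Ctnnb1-ex3. The groups did not overlap and Tfrc passed the test at -0.67 ± 0.19 (SE; edgeR adjusted p = 0.0252). No call was left with any 1 of the 4 libraries taken out, at log2 fold changes from -0.84 (without WT replicate 1) to -0.53 (without WT replicate 2), and -0.61 and -0.75 without Ctnnb1-ex3 replicate 1 or 2. It was lost as well with upper-quartile factors (-0.43), with an offset fitted to the trend of fold change on abundance (-0.17) and with 1 fitted to the trend on read density (-0.25; edgeR adjusted p = 0.0504). Tfrc had an adjusted p of 5.94e-05 in the authors' deposited table. Tfr2, the receptor that senses transferrin, had at most 9 counts in any library and was not tested.

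Both iron export genes fell. Slc40a1, which encodes ferroportin (chromosome 1, 45908068 to 45926523, minus strand), stood at 212 and 218 CPM in WT and at 31.6 and 18.2 in Ctnnb1-ex3. The difference was 8.39-fold (log2 fold change -3.07 ± 0.23, SE; edgeR adjusted p = 0.000133), from -3.57 without Ctnnb1-ex3 replicate 1 to -2.77 without Ctnnb1-ex3 replicate 2. Macrophages also make ferroportin. The 6 macrophage markers summed to 102.7 CPM in WT replicate 1 and 9.13 in WT replicate 2. Their part in the level of Slc40a1 was not tested. Heph, the membrane ferroxidase hephaestin (chromosome X, 96455359 to 96574485, plus strand), stood at 201 and 172 CPM in WT and at 87.3 and 86.3 in Ctnnb1-ex3. It fell 2.15-fold (log2 fold change -1.11 ± 0.14, SE; edgeR adjusted p = 0.00102). Absorption genes on both faces of the cell were thus lower, while the phagosomal metal exporter Slc11a1, a gene of myeloid cells, had between 6 and 19 counts and was not called (log2 fold change 0.36 ± 0.53, SE).

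The ferritin genes were among the densest in the table. Fth1, the heavy chain with ferroxidase activity (chromosome 19, 9980598 to 9985098, plus strand), had 1512 and 1338 counts in WT against 1309 and 1158 in Ctnnb1-ex3. Scaled to library size these were 348 and 509 CPM in WT against 197 and 298 in Ctnnb1-ex3. The gap between the WT replicates was nearly as wide as that between the group means, and Fth1 passed the test narrowly (log2 fold change -0.80 ± 0.26, SE; edgeR adjusted p = 0.0413). Leaving out WT replicate 2 (-0.51) or Ctnnb1-ex3 replicate 1 (-0.54) ended the call, as did upper-quartile factors (-0.56), the abundance offset (-0.34) and the read-density offset (-0.34; edgeR adjusted p = 0.0685). In the authors' deposited table Fth1 had an adjusted p of 0.0847. Ftl1, the light chain that helps iron to crystallise (chromosome 7, 45457944 to 45459884, minus strand), had between 1365 and 1507 counts in every library. Its groups overlapped in CPM and it was not called (log2 fold change -0.55 ± 0.28, SE; edgeR adjusted p = 0.151). It was called lower with no filter on low counts (-0.52) and with a replicate block (-0.56). Its log2 fold change was -0.93 without Ctnnb1-ex3 replicate 2 and turned to 0.07 with the read-density offset. Of the exon bases of Ftl1, 34.6% are shared with other annotated genes, and its counts are uncertain for that reason.

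**Figure D2:**
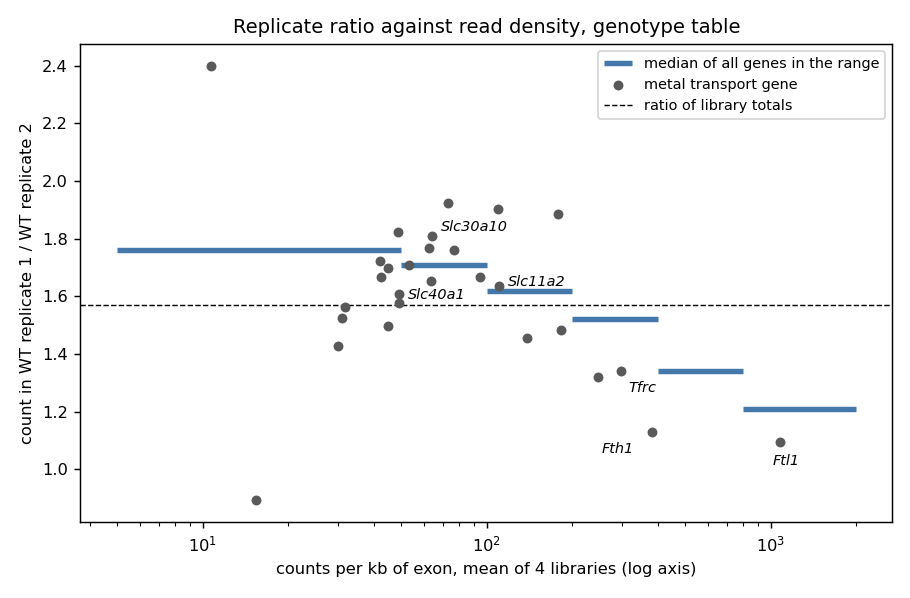
Count in WT replicate 1 divided by that in WT replicate 2, against counts per kb of exon (log axis, mean of 4 libraries), for each transport gene with at least 20 counts in every library (points) and as the median of all genes in 6 ranges (bars); the dashed line is the ratio of library totals, 1.57. The ratio of Fth1 was 1.13 and that of Ftl1 1.10, both below the library ratio, while Slc40a1 at 1.61 lay near it.

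The plot of replicate ratios shows what limits these values. The ratio of WT library totals was 1.57, but the WT counts of Fth1 differed by a ratio of 1.13, those of Ftl1 by 1.10 and those of Tfrc by 1.34. Slc40a1, Slc11a2 and Slc30a10, with ratios of 1.61, 1.64 and 1.81, did not share this compression. The cause of the flattening was not tested.

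Genes of the SLC30 family fell together. Of the 8 tested, which include the manganese exporter Slc30a10, 7 were lower (20.5% of all genes) and none was higher (20.3% of all genes). Slc30a1, which exports zinc over the plasma membrane (chromosome 1, 191906767 to 191913247, plus strand), stood at 85.2 and 84.5 CPM in WT and at 30.7 and 25.2 in Ctnnb1-ex3. This was a 3.02-fold fall (log2 fold change -1.59 ± 0.18, SE; edgeR adjusted p = 0.000525). Slc30a10, the manganese exporter (chromosome 1, 185454848 to 185468762, plus strand), stood at 190 and 174 CPM in WT and at 27.4 and 10.3 in Ctnnb1-ex3. All values of the mutant lay far below WT, and the fall was 9.17-fold (log2 fold change -3.20 ± 0.33, SE; edgeR adjusted p = 0.000404). The 2 Ctnnb1-ex3 libraries differed among themselves, so that the log2 fold change was -4.16 without replicate 1 and -2.73 without replicate 2.

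Most other tested SLC30 genes, among them transporters that fill vesicles and the secretory pathway with zinc, were lower as well. Slc30a4, an endosomal transporter, stood at 163.5 and 153.3 CPM in WT and at 47.3 and 65.8 in Ctnnb1-ex3, a 2.83-fold fall (edgeR adjusted p = 0.000654). Slc30a6 stood at 103 and 102 CPM in WT and at 40.3 and 47.5 in Ctnnb1-ex3, a 2.35-fold fall (edgeR adjusted p = 0.000747). Its partner Slc30a5, with which it loads zinc enzymes such as alkaline phosphatase, fell less, by 0.66 on the log2 scale (edgeR adjusted p = 0.00505). Slc30a7 of the Golgi and Slc30a9 were lower at -0.57 and -0.64. Without WT replicate 2 the calls of Slc30a5 (-0.68), Slc30a7 (-0.65) and Slc30a9 (-0.61) were lost, and that of Slc30a7 also without WT replicate 1 (-0.52). Upper-quartile factors ended the calls of Slc30a7 (-0.33) and Slc30a9 (-0.40), and the abundance offset that of Slc30a7 (-0.30). Of the exon bases of Slc30a7, 16% are shared with other annotated genes. The adjusted p of Slc30a7 in the authors' deposited table was 0.0908. Slc30a2, known from secretory granules, was not called and its libraries overlapped, at 7.60 and 14.1 CPM in WT against 18.8 and 6.17 in Ctnnb1-ex3. Slc30a3 of synaptic vesicles had 1 and 2 counts in WT against 8 and 16 in Ctnnb1-ex3, and Slc30a8 of insulin granules at most 7 counts, and neither was tested.

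In the SLC39 family 6 of 12 tested genes fell (20.5% of all genes), 2 rose (20.3% of all genes) and 4 were not called. Slc39a5, the importer at the basolateral side of the enterocyte (chromosome 10, 128395931 to 128401229, minus strand), stood at 134 and 149 CPM in WT and at 65.1 and 57.5 in Ctnnb1-ex3. It fell 2.29-fold (log2 fold change -1.20 ± 0.14, SE; edgeR adjusted p = 0.000656). Slc39a4, the brush border zinc importer whose loss causes acrodermatitis enteropathica (chromosome 15, 76612383 to 76617384, minus strand), stood at 115 and 131 CPM in WT and at 88.1 and 73.7 in Ctnnb1-ex3. It was lower at -0.60 ± 0.15 (SE; edgeR adjusted p = 0.0147), a call that was lost without WT replicate 2 (-0.52), with upper-quartile factors (-0.36), with the abundance offset (-0.41) and with the read-density offset (-0.35). Both importers that face the lumen or the blood were thus lower, the basolateral one by more. Slc39a14, which also carries iron and manganese (chromosome 14, 70303469 to 70351425, minus strand), stood at 145.5 and 160.5 CPM in WT and at 92.9 and 55.7 in Ctnnb1-ex3. It fell 2.03-fold (log2 fold change -1.02 ± 0.22, SE; edgeR adjusted p = 0.00869). Slc39a8, its close relative (chromosome 3, 135825279 to 135888572, plus strand), overlapped between groups, at 118 and 110 CPM in WT against 100.4 and 116 in Ctnnb1-ex3, and was not called (-0.08 ± 0.14, SE). Slc39a11 (-0.90), Slc39a9 of the Golgi (-0.71) and the widely expressed Slc39a1 (-0.61) were also lower. The call of Slc39a1 was lost without WT replicate 2 (-0.46), with upper-quartile factors (-0.37), with the abundance offset (-0.31) and with the read-density offset (-0.23).

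A pair of plasma membrane importers moved the other way. Slc39a6 stood at 17.04 and 16.4 CPM in WT and at 67.0 and 32.1 in Ctnnb1-ex3. Slc39a10, with which it forms a heteromer (chromosome 1, 46807544 to 46892852, minus strand), stood at 28.5 and 27.8 CPM in WT and at 99.6 and 61.4 in Ctnnb1-ex3. Both mutant libraries lay above both WT libraries for each gene, and replicate 1 of the mutant was the higher. Slc39a6 rose 2.99-fold (log2 fold change 1.58 ± 0.36, SE; edgeR adjusted p = 0.0111), which became 0.93 without Ctnnb1-ex3 replicate 1. Slc39a10 rose 2.88-fold (log2 fold change 1.52 ± 0.25, SE; edgeR adjusted p = 0.00277). Slc39a3, Slc39a7 and Slc39a13 were not called, at log2 fold changes of 0.46, 0.23 and 0.50. Slc39a7 of the endoplasmic reticulum shares 80.7% of its exon bases with another annotated gene, so its counts are uncertain. It was called higher with upper-quartile factors (0.47), the abundance offset (0.43) and the read-density offset (0.52). Without Ctnnb1-ex3 replicate 1 its log2 fold change was 0.30. Slc39a2 had between 7 and 17 counts and Slc39a12 between 1 and 3, and neither was tested.

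The 3 magnesium transporters of the SLC41 family went different ways. Slc41a2 (chromosome 10, 83230848 to 83337882, minus strand) stood at 92.8 and 77.2 CPM in WT and at 10.8 and 3.85 in Ctnnb1-ex3. It had 15 counts in the lowest library, and it fell 10.9-fold (log2 fold change -3.44 ± 0.37, SE; edgeR adjusted p = 0.000477), from -4.47 without Ctnnb1-ex3 replicate 1 to -2.98 without Ctnnb1-ex3 replicate 2. Slc41a1, a sodium-dependent magnesium extruder (chromosome 1, 131827493 to 131848865, plus strand), stood at 16.1 and 18.6 CPM in WT and at 47.5 and 39.6 in Ctnnb1-ex3. It rose 2.52-fold (log2 fold change 1.33 ± 0.26, SE; edgeR adjusted p = 0.00516). Slc41a3 had between 16 and 19 counts in every library, overlapped between groups and was not called (-0.52 ± 0.59, SE).

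Other metal handling genes came from a list of 60 symbols outside the rule, of which 47 passed the filter. Of these, 17 were lower (20.5% of all genes) and 4 higher (20.3% of all genes). The 6 largest falls past a log2 fold change of -1 were in Hmox1, which breaks down heme (-2.45), Slc46a1, a proton-coupled folate carrier that was first described as a heme carrier (-1.77), the magnesium transporter Nipa2 (-1.35), Alas1, which starts heme synthesis (-1.31), the copper importer Slc31a1 (-1.28) and Ncoa4, the receptor that sends ferritin to the lysosome (-1.28). Rises past 1 were in the metallothionein Mt3 (3.94), the endosomal ferrireductase Steap3 (1.26) and the heme transporter Slc48a1 (1.06). Mt3 had 6 and 1 counts in WT against 107 and 56 in Ctnnb1-ex3. The main metallothioneins were not called, Mt1 at -0.55 (edgeR adjusted p = 0.103) and Mt2 at -0.54 (edgeR adjusted p = 0.0782). Mtf1 stood at 73.0 and 56.3 CPM in WT and at 43.4 and 29.5 in Ctnnb1-ex3. It was lower at -0.82 (edgeR adjusted p = 0.0264), and its part in the levels of the zinc transporters was not tested.

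With the hairpin against Prmt1 the same family was split. The manganese exporter SLC30A10 rose 9.85-fold from a low level, and the iron exporter SLC40A1, its partner HEPH and the ferritin heavy chain FTH1 rose as well. The zinc transporters SLC39A8 and SLC30A7 fell 2.66-fold and 2.51-fold. Of the 36 genes, 33 passed the filter and 20 were called, where 41.0% of all 18447 genes tested were called. Among the 33, 11 were higher (20.6% of all genes) and 9 lower (20.4% of all genes). Past an absolute log2 fold change of 1 (12.3% of all genes) there were 2 higher (6.36% of all genes) and 2 lower (5.90% of all genes), which leaves most changes small. The median log2 fold change was 0.01 over the 33 genes and 0.03 over all genes tested. Of the 20 calls, 14 held under all 11 alternatives. The summed level of 8 enterocyte markers was also lower with sh-Prmt1, at 5634 and 5728 CPM against 7450 and 8126 for the controls. Most of this sum was FABP1, at 5387 and 5479 CPM with sh-Prmt1 against 7173 and 7805 for the controls. The lower sum therefore mainly followed that gene and does not show a fall of the markers as a set. Of the 5 enterocyte markers tested, 1 was higher (20.6% of all genes) and 2 were lower (20.4% of all genes). Macrophage markers, 3 of 6 of them at 0 in each sh-scramble library, summed to 1.27 and 0.968 CPM there and to 4.03 and 3.42 with sh-Prmt1. Erythroid markers, 4 in number, summed to 0.0809 and 0.165 CPM in sh-scramble (3 and 7 estimated counts) and to 2.94 and 4.10 with sh-Prmt1. Only 1 gene of each of these lists passed the filter, and neither sum shows a rise of the markers as a set. The sum of 2 Paneth markers was 16.9 and 17.3 CPM against 35.8 and 39.8. Of 4 crypt base stem cell markers tested, 2 were lower (20.4% of all genes). The part of these markers in the differences below was not tested. SLC30A2 and SLC30A3 had between 3 and 11 estimated counts, SLC39A12 had 3 in 1 library and 0 in the others, and none of the 3 was tested.

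**Figure D3:**
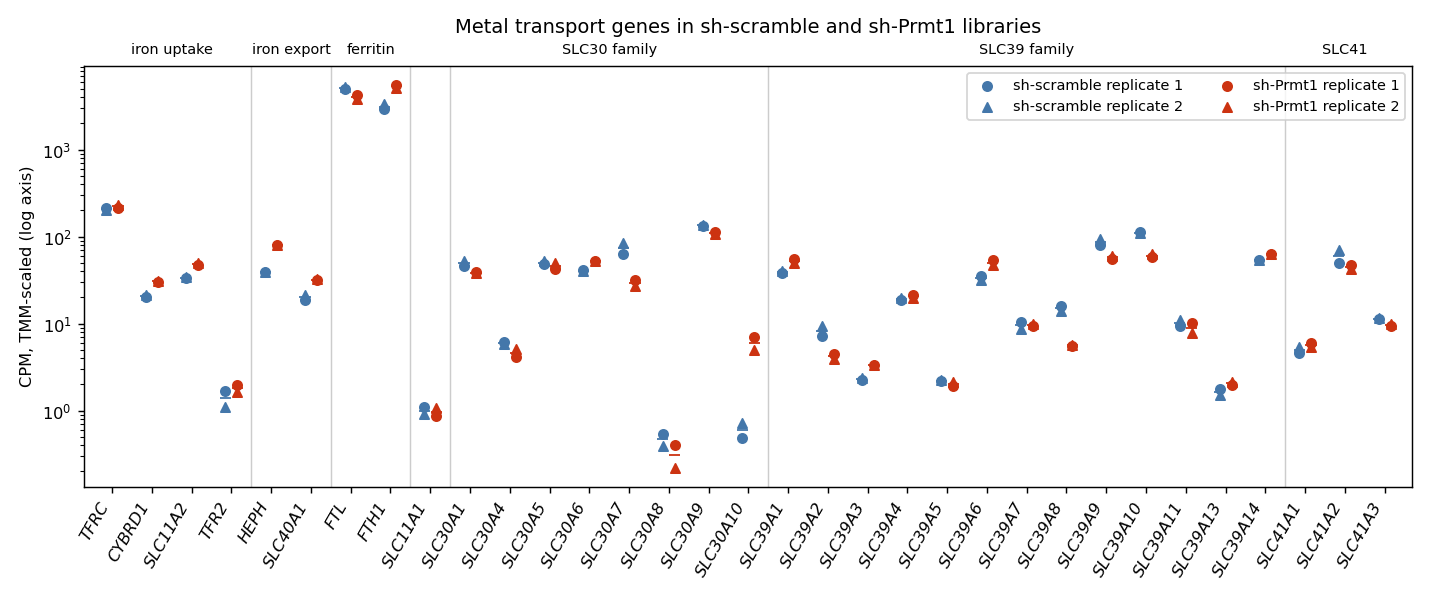
Level of each transport gene that passed the filter in the knockdown experiment, as TMM-scaled CPM on a log axis, with circles for replicate 1, triangles for replicate 2 and a line at each group mean. SLC30A10 lies near 0.6 CPM in sh-scramble (blue) and near 6 CPM in sh-Prmt1 (red); SLC39A8 and SLC30A7 lie lower in sh-Prmt1.

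Per length of transcript (TPM), the ferritin chains stood far above the other genes in these libraries. FTL had a mean of 6381 TPM in sh-scramble and FTH1 3793, followed by SLC39A10 at 51.0, SLC39A4 at 43.9 and TFRC at 27.6. The place of SLC39A4 rests on a short effective length from Salmon, 254 and 247 bases in sh-scramble. In CPM it stood at 18.8 and 19.6 there, far below TFRC at 210.5 and 202. FTH1 stood at 2916 and 3344 CPM in sh-scramble and at 5565 and 5117 in sh-Prmt1. The groups lay well apart, and it rose 1.71-fold (log2 fold change 0.77 ± 0.11, SE; edgeR adjusted p = 0.000452). FTL stood at 5003 and 5243 CPM in sh-scramble and at 4242 and 3790 in sh-Prmt1. It was lower at -0.35 ± 0.10 (SE; edgeR adjusted p = 0.023), a call that was lost without sh-Prmt1 replicate 2 (-0.29; edgeR adjusted p = 0.146) with an offset from Salmon's effective transcript lengths (-0.27; edgeR adjusted p = 0.0646) and with the abundance offset, where it was 0.02 (edgeR adjusted p = 0.897). Both chains have many processed pseudogenes, and the estimated counts given to 24 FTH1 pseudogenes came to between 0.912% and 1.06% of those of FTH1, and for 16 FTL pseudogenes to between 0.505% and 0.589%. Mean FTH1 in sh-Prmt1 was 7476 TPM and mean FTL 5908, so the order of the chains was the reverse of that in sh-scramble.

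Iron uptake genes rose modestly or were not called. CYBRD1 stood at 19.9 and 21.1 CPM in sh-scramble and at 30.0 and 30.9 in sh-Prmt1, a 1.48-fold rise (log2 fold change 0.57 ± 0.09, SE; edgeR adjusted p = 0.000843). In the authors' deposited table CYBRD1 had a log2 fold change of 0.26 and an adjusted p of 0.106. SLC11A2 stood at 33.5 and 34.0 CPM in sh-scramble and at 46.9 and 49.2 in sh-Prmt1, a 1.42-fold rise (log2 fold change 0.51 ± 0.08, SE; edgeR adjusted p = 0.00101). TFRC stood at 210.5 and 202 CPM in sh-scramble and at 215 and 230.1 in sh-Prmt1. Its groups did not overlap, but the difference was small and was not called (0.11 ± 0.09, SE; edgeR adjusted p = 0.345). With the abundance offset it was called, at 0.29 (edgeR adjusted p = 0.0243). TFR2, near 1 to 2 CPM, overlapped between groups and was not called (0.39 ± 0.29, SE).

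Both iron export genes rose. SLC40A1 stood at 18.9 and 21.3 CPM in sh-scramble and at 31.4 and 32.7 in sh-Prmt1, a 1.60-fold rise (log2 fold change 0.68 ± 0.10, SE; edgeR adjusted p = 0.000466). HEPH stood at 39.5 and 39.3 CPM in sh-scramble and at 79.8 and 79.3 in sh-Prmt1. Its replicates agreed closely, and it rose 2.02-fold (log2 fold change 1.01 ± 0.08, SE; edgeR adjusted p = 1.99e-05). SLC11A1 stood near 1 CPM in all libraries and was not called.

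Among the tested genes of the SLC30 family 2 rose (20.6% of all genes), 3 fell (20.4% of all genes) and 3 were not called. SLC30A10 had 18.2 and 30.2 estimated counts in sh-scramble against 297 and 284 in sh-Prmt1, or 0.490 and 0.712 CPM against 6.94 and 4.996. Both sh-Prmt1 libraries lay far above both controls (log2 fold change 3.30 ± 0.27, SE; edgeR adjusted p = 2.14e-05). SLC30A6 was slightly higher, at 40.96 and 40.5 CPM in sh-scramble against 52.3 and 51.9 in sh-Prmt1 (log2 fold change 0.36; edgeR adjusted p = 0.00626). Its adjusted p in the authors' deposited table was 0.0627. SLC30A7 of the Golgi stood at 63.4 and 83.4 CPM in sh-scramble and at 31.6 and 27.0 in sh-Prmt1. It fell 2.51-fold (log2 fold change -1.33 ± 0.13, SE; edgeR adjusted p = 6.6e-05). SLC30A1 was lower, at 46.5 and 51.8 CPM in sh-scramble against 38.8 and 37.9 in sh-Prmt1 (log2 fold change -0.36 ± 0.09, SE; edgeR adjusted p = 0.00984), a call that was lost without sh-scramble replicate 2 (-0.30). SLC30A9 was lower at -0.29 (edgeR adjusted p = 0.019), which was lost without sh-scramble replicate 2 (-0.29), sh-Prmt1 replicate 1 (-0.32) or sh-Prmt1 replicate 2 (-0.29), and with the abundance (-0.14) and effective-length (-0.27) offsets. SLC30A4 of endosomes (-0.38; edgeR adjusted p = 0.0917), SLC30A5 (-0.13) and SLC30A8, which had between 12.4 and 20 estimated counts (-0.64), were not called.

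The zinc importers were divided evenly, with 4 higher (20.6% of all genes), 4 lower (20.4% of all genes) and 5 not called. SLC39A8, which also carries manganese and iron, stood at 16.02 and 14.1 CPM in sh-scramble and at 5.58 and 5.71 in sh-Prmt1. It had the largest fall of the 33 genes (log2 fold change -1.41 ± 0.13, SE; edgeR adjusted p = 4e-05). SLC39A14, its relative, stood at 53.2 and 53.4 CPM in sh-scramble and at 63.5 and 62.9 in sh-Prmt1. This small difference passed the test (log2 fold change 0.25 ± 0.08, SE; edgeR adjusted p = 0.0348) and the call was lost with any 1 library left out and under 5 of the other 7 alternatives, among them RLE factors (0.22), DESeq2 (0.22) and the effective-length offset (0.26). Without 1 library the log2 fold changes ran from 0.19 without sh-scramble replicate 1 to 0.23 without sh-Prmt1 replicate 2. SLC39A6 stood at 35.1 and 31.4 CPM in sh-scramble and at 53.4 and 47.4 in sh-Prmt1, and its heteromer partner SLC39A10 at 113 and 109 CPM in sh-scramble and at 57.6 and 63.0 in sh-Prmt1. The first rose 1.51-fold (log2 fold change 0.60; edgeR adjusted p = 0.00101) and the second fell 1.84-fold (log2 fold change -0.88; edgeR adjusted p = 6.06e-05). The plasma membrane importer SLC39A1 rose 1.34-fold and SLC39A3 1.46-fold, the latter a call that was lost with any 1 library left out (log2 fold changes of 0.46 to 0.56) and under 6 of the other 7 alternatives (0.38 to 0.54). SLC39A2 was lower at -0.98 (edgeR adjusted p = 0.00149) and SLC39A9 of the Golgi at -0.58 (edgeR adjusted p = 0.00149). SLC39A4 and SLC39A5, the apical and basolateral importers, were not called, at 18.8 and 19.6 CPM and 2.21 and 2.22 CPM in sh-scramble against 21.3 and 19.8 and 1.89 and 2.13 in sh-Prmt1. SLC39A7, SLC39A11 and SLC39A13 were not called either, at log2 fold changes of 0.01, -0.18 and 0.33. The authors' deposited table gave adjusted p-values of 0.219 for SLC39A14 and 0.452 for SLC39A3.

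Of the magnesium transporters, SLC41A2 stood at 49.7 and 70.0 CPM in sh-scramble and at 47.2 and 42.9 in sh-Prmt1. The control replicates differed more than the group means did, and the call (log2 fold change -0.41 ± 0.14, SE; edgeR adjusted p = 0.0431) was lost without sh-scramble replicate 2 (-0.16), sh-Prmt1 replicate 1 (-0.49) or sh-Prmt1 replicate 2 (-0.36), and with the abundance (-0.34) and effective-length (-0.37) offsets. SLC41A1 stood at 4.61 and 5.38 CPM in sh-scramble and at 6.05 and 5.32 in sh-Prmt1, with overlapping groups. SLC41A3 stood at 11.2 and 11.6 CPM in sh-scramble and at 9.48 and 9.84 in sh-Prmt1, and neither gene was called.

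Among 67 companion symbols, 55 passed the filter. Of these, 23 were higher (20.6% of all genes) and 11 lower (20.4% of all genes) with sh-Prmt1. The 6 largest rises past a log2 fold change of 1 were in the metallothioneins MT1G (2.92), MT1E (2.40) and MT1F (2.14), in HMOX1 (1.67), in STEAP3 (1.18) and in ISCU, the scaffold for iron-sulfur clusters (1.14). MT1G stood at 3.28 and 4.18 CPM in sh-scramble and at 28.6 and 28.3 in sh-Prmt1. The metallothioneins with the highest levels changed less. MT1X stood at 72.2 and 73.8 CPM in sh-scramble and at 93.7 and 98.4 in sh-Prmt1 (log2 fold change 0.40). MT2A, at 24.18 and 25.32 CPM against 24.85 and 25.05, was not called (0.01), and neither was MT1A (-0.16). Metallothioneins bind zinc and copper, and because the MT1 copies are nearly identical the split of reads among them is uncertain. Falls past -1 were in the ferroxidase HEPHL1 (-1.29) and the metalloreductase STEAP1 (-1.06). MTF1, the factor that binds metal response elements, was higher at 0.39 (edgeR adjusted p = 0.0112).

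The 2 experiments share no libraries and differ in species of the gene models, so their values are set side by side without a test. Of the 20 genes lower in Ctnnb1-ex3 organoids, 9 were higher with sh-Prmt1 (20.6% of all genes), 5 lower (20.4% of all genes) and 6 not called. Cybrd1, Slc11a2, Slc40a1, Heph and Fth1 were in the group of 9, as was Slc30a10, with log2 fold changes of -3.20 in one experiment and 3.30 in the other. Of the 3 genes that were higher in Ctnnb1-ex3, Slc39a6 was higher with sh-Prmt1 as well, Slc39a10 was lower and Slc41a1 was not called. PRMT1 itself went up in the first experiment and down in the second, and its part in these differences was not tested.

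**Figure D4:**
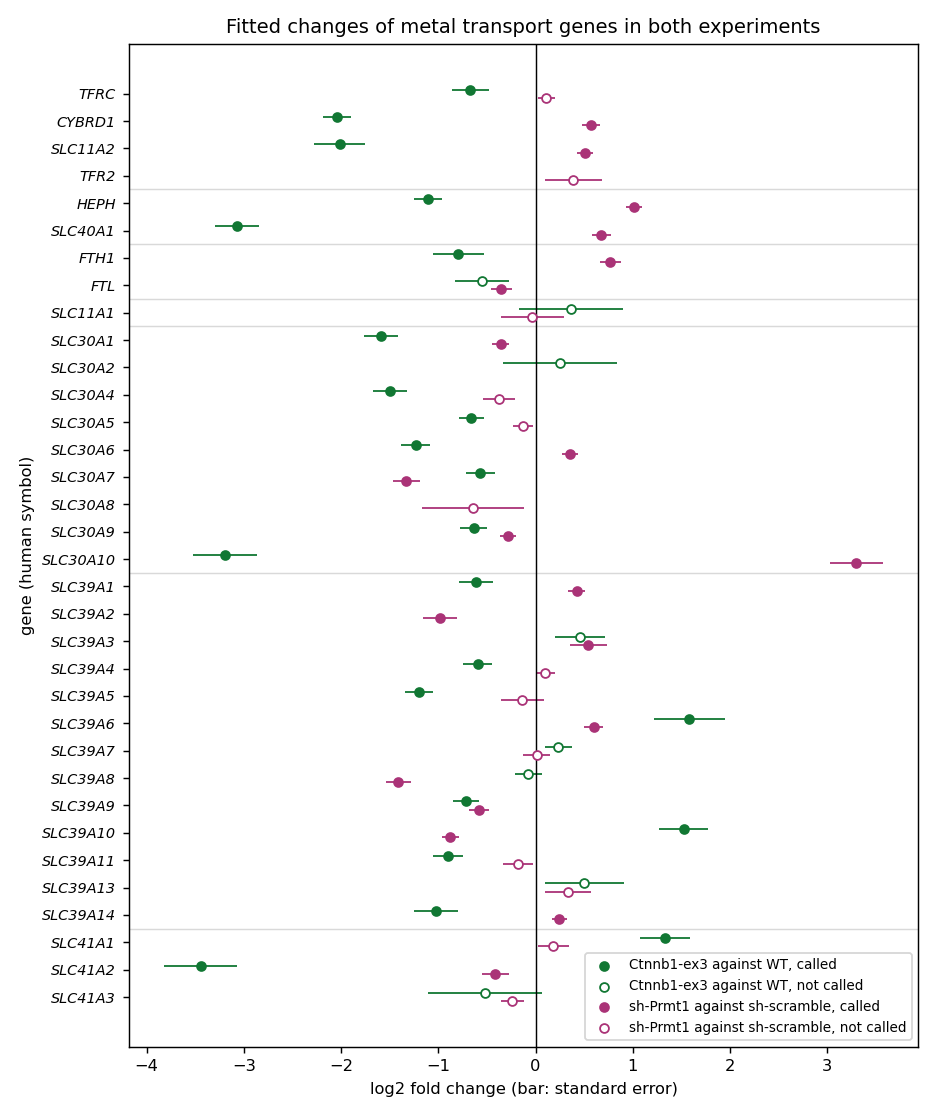
Fitted log2 fold change with its standard error for each transport gene in the genotype experiment (green, Ctnnb1-ex3 against WT) and the knockdown experiment (purple, sh-Prmt1 against sh-scramble), under human symbols; filled points were called at an edgeR adjusted p under 0.05. SLC30A10 lies at -3.20 and 3.30, and the iron absorption genes CYBRD1, SLC11A2, HEPH and SLC40A1 lie left of 0 in green and right of 0 in purple.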

How the data were processed

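For the genotype experiment the authors deposited a table of counts, whole numbers by mouse symbol, with no value under 1 and 861 genes at 1 in all 4 libraries. For the knockdown the deposited files hold, per the file headers, Salmon estimated counts, TPM and effective lengths. The authors also deposited log2 fold changes and adjusted p-values of their own for both. The submitters' processing notes name mm10, Salmon and DESeq2 without versions; the sources used here name neither the counting tool nor the human build. Human Y-linked genes and XIST (163 identifiers) were left out, and estimated counts were rounded.

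The experiments were fitted separately in edgeR 4.0.16 (R 4.3.3), after TMM scaling and filterByExpr, by its quasi-likelihood test, two-sided. P-values were adjusted by Benjamini-Hochberg across every gene that passed the filter, and calls were made under an adjusted p of 0.05. Alternatives were DESeq2 1.42.0, other scalings and offsets, no filter, a replicate block and each library left out. The read-density offset and the limit of 1 on the absolute log2 fold change were chosen after seeing the data. The procedure was tested on simulated data. The members and lists were chosen with earlier results of these data known. Every member may be named. Companion genes are named past a log2 fold change of 1, at most 6 in each direction. Mt1, Mt2, Mtf1, MTF1, MT1X, MT2A and MT1A were named after their values were seen. Coordinates and exon lengths are from GENCODE M21 (mm10). A floor of 3 counts, which covers counting error only, equals 0.451 to 1.14 CPM in a genotype library and at most 0.0809 CPM in a knockdown library.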

Additional observations from a re-analysis of the deposited data

How the results depend on the processing

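In the genotype experiment leaving out 1 library at a time gave between 1110 and 4008 higher and between 1524 and 3749 lower genes, against 2637 and 2654, and in the knockdown between 2682 and 3112 and between 3127 and 3784, against 3793 and 3765. Members then numbered between 3 and 5 higher and between 13 and 20 lower, against 3 and 20, and in the knockdown 9 higher and between 6 and 9 lower, against 11 and 9. Upper-quartile factors gave 1752 lower genes. A limit of 1 on the absolute log2 fold change, chosen after seeing the data, gave 1687 higher and 1166 lower genes with 11 members lower, and in the knockdown 1174 and 1089 genes with 2 members each way. Directions turned only for genes that were not called, except FTL, which was 0.0202 with the abundance offset. In the genotype experiment the abundance and read-density offsets gave -0.63 and -0.57 for Slc11a1, -0.33 and -0.27 for Slc30a2, and -0.0306 and -0.0499 for Slc39a13. Slc39a8 was 0.16 with upper-quartile factors and 0.14 with the abundance offset, and Ftl1 was 0.0722 with the read-density offset. Leaving out 1 library gave Slc30a2 from -0.78 (Ctnnb1-ex3 replicate 1) to 0.84 (Ctnnb1-ex3 replicate 2), with -0.18 for WT replicate 1, and Slc39a8 from -0.18 (Ctnnb1-ex3 replicate 2) to 0.0145 (Ctnnb1-ex3 replicate 1). In the knockdown the effective-length offset gave SLC11A1 0.0230, SLC30A8 0.91, SLC39A11 0.19, SLC39A5 0.22, TFR2 -0.26 and TFRC -0.14. SLC39A7 was -0.0102 with RLE factors, -0.0106 with DESeq2, -0.0563 with the abundance offset and -0.0197 with no filter, and ran from -0.15 (without sh-scramble replicate 2) to 0.11 (without sh-scramble replicate 1). SLC11A1 ran from -0.21 (without sh-Prmt1 replicate 2) to 0.0885 (without sh-Prmt1 replicate 1). The cause of these changes was not tested.

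Replicate numbers are not stated to pair libraries, and same-numbered libraries deviated together little (correlation across genes 0.0706 for genotype and -0.0513 for knockdown). With the replicate block there were 2981 higher and 3503 lower genes and 3 and 21 members in the genotype experiment, and 3531 and 3577 genes and 9 members each way in the knockdown. With 1 library left out, a lone library is assumed to vary like the other group.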
